A study of Mus musculus with 18 samples.

Results

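The whisker pad was compared between the denervated and the sham side at day 3 after facial nerve transection, in 6 of the 18 samples of the series. These 6 samples are the right (denervated) and left (sham) pads of 3 mice, and each right pad was compared with the left pad of the same mouse. On the right, 2 branches of the facial nerve, the buccal and the superior marginal, were cut. On the left the skin alone was cut and closed again over an intact nerve. Side and lesion therefore cannot be told apart. The mice were adults, and the study as a whole used both sexes. The strain and genotype of these mice are not given in the sources used here. Every sample was a punch biopsy of skin and muscle from the rostral pad. Fewer cells of a type and less RNA per cell cannot be told apart in such tissue.

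Levels are in TPM, a unit per transcript length and sequencing depth, which the authors further normalized between samples and which were summed over the transcripts of each gene. Changes are given as log2 fold changes of denervated over sham on the log2(TPM + 0.5) scale, which understates the change of genes with low values. Their standard error (SE) is that of limma's paired fit of 3 mice. It uses a variance shared in part between genes, so it is not the spread of the 3 mice alone. An adjusted p is that of limma's paired test with Benjamini-Hochberg adjustment over all genes tested. Mice are listed as 1, 2, and 3 throughout. The depth was estimated at 10200000 to 24500000 reads per sample.

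The tissue of both sides held muscle and skin. The summed level of 10 skeletal muscle markers was 14037, 16273, and 15781 TPM in sham and 11552, 15782, and 14140.5 TPM in denervated pads, which overlap. The summed level of 17 hair shaft and root sheath markers was 7975, 12013, and 5659.6 TPM in sham and 5591, 3249.7, and 4053 TPM in denervated pads, which do not overlap. All 17 were below sham in the fit, with a median log2 fold change of -1.05, and 0 of 17 passed the test. The log2 ratio of the sums was -0.51, -1.89, and -0.48 for hair and -0.28, -0.04, and -0.16 for muscle in the 3 mice, and the part of hair content in the results on skin genes was not tested. The sham sample of mouse 3 also stood apart. Krt13 and Krt4, the keratins of lining epithelia such as that of the mouth, were at 2201 and 1488 TPM there and at no more than 3.16 and 1.63 TPM in the other 5 samples. Both pads of mouse 1 were at least 2-fold above the other 4 samples in 33 genes and at least 2-fold below them in 28, where mouse 2 had 10 and 22 such genes and mouse 3 had 4 and 18. Fabp3, Ucp3, and Pdk4, which serve the use of fatty acids, were among those higher in mouse 1.

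A muscle fiber normally keeps its acetylcholine receptors at the synapse and holds synaptic genes silent elsewhere along its length through electrical activity. When the motor nerve is cut, the myogenic transcription factors, which bind the E-box sequence CANNTG, return. The fiber then switches on receptor subunits of the fetal type and calcium-activated potassium channels, and becomes excitable and sensitive to acetylcholine over its whole surface. Proteolysis by muscle ubiquitin ligases and a change in metabolic enzymes follow in most limb muscles.

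The promoters of receptor subunit genes and of Musk are shown. They were chosen because most of these genes rose at day 3 and because E-boxes of the myogenic factors are known from the receptor family. Each is 300 bases, from 250 before to 50 after the gene start, from RefSeq on build GRCm38.p6, written 5′ to 3′ on the strand of the gene. Capitals mark CAGCTG and CACCTG (or its reverse CAGGTG), searched on both strands. Chrna1 lies at chr2:73580289-73580588 on the minus strand, Chrnb1 at chr11:69795888-69796187 on the minus strand, Chrng at chr1:87205561-87205860 on the plus strand, Chrne at chr11:70619145-70619444 on the minus strand, and Musk at chr4:58285712-58286011 on the plus strand. Of these genes Chrne did not pass the test, and the table held no promoter of Chrnd.
Chrna1: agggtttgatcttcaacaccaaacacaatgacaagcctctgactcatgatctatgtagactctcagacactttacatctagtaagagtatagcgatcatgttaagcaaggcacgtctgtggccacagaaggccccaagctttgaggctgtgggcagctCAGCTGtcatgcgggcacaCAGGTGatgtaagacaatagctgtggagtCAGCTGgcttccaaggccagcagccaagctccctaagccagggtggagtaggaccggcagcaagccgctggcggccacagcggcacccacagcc
Chrnb1: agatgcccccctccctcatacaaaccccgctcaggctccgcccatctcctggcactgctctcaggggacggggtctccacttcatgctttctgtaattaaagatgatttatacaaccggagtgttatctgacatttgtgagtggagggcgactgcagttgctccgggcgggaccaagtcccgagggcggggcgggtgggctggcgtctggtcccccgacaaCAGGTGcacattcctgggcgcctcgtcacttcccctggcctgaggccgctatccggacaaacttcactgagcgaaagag
Chrng: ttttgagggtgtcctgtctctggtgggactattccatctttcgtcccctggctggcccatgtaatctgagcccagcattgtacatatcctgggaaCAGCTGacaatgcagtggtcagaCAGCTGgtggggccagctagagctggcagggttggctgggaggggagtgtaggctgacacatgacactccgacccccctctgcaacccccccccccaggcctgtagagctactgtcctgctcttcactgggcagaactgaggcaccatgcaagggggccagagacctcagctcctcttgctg
Chrne: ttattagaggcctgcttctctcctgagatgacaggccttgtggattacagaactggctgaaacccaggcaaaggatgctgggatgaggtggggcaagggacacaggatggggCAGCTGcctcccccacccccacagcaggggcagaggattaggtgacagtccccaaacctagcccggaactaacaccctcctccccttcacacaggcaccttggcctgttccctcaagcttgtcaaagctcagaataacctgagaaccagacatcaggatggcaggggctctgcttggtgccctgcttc
Musk: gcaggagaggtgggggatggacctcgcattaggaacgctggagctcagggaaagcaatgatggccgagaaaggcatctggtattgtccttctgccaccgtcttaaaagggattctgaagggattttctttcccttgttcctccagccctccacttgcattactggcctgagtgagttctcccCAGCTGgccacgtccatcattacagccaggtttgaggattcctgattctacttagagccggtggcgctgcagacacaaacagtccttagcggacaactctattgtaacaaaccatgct

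Chrna1 held CAGCTG starting 92 and 44 bases before the gene start and CACCTG 73 bases before it, and Chrng held CAGCTG 155 and 132 bases before it. Chrnb1 had CACCTG at 29 bases and Musk had CAGCTG at 68 bases before the start. Chrne, which did not pass the test, also had a CAGCTG, 138 bases before its start. Promoters of some other genes that rose were searched too and are not shown. Those of Myog and Gadd45a held neither motif, and those of Ppp1r27, Ankrd1, and Dusp13 did. Runx1 had a promoter with CACCTG and another with neither motif. Of 32851 promoters of the same length, 16.3% held CAGCTG, 20.2% held CACCTG, 33.0% held either, and 72.3% held CANNTG, which both of the other motifs match. The matches are descriptions of these letters and were not tested as binding sites.

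Among 14943 genes tested at day 3, 217 (1.45%) passed the test, 138 higher in denervated pads (0.924%) and 79 lower (0.529%). The rises were larger than the falls. Of the genes that passed, 114 rose (0.763%) and 54 fell (0.361%) by at least 2-fold, 44 rose and 12 fell by at least 4-fold, and 21 rose and 1 fell by at least 8-fold. All 217 moved in the same direction in all 3 mice, and 207 are protein coding. For 201 of the 217 the 3 denervated values did not overlap the 3 sham values, where 21.5% of all genes tested had such values. The median log2 fold change of all genes was -0.01, and 47.3% of them had a value above 0. Scaled to the muscle markers, that median was 0.14, and 315 genes passed as higher and 69 as lower, so that 82.0% of calls were higher instead of 63.6%. With only 3 mice an exact sign-flip test cannot go below p = 0.25 (two-sided) for a single gene, and the calls rest on the spread that limma shares between genes. Without mouse 1, 2, or 3, 50, 38, and 47 of the 217 genes still passed, and 22 passed in every one of these fits. All kept their direction, which was fixed in advance since each had the same direction in all 3 mice. Among the 22 were Chrng, Chrnb1, Myog, Myod1, Myf6, Runx1, Gadd45a, Dusp13, Tnfrsf12a, Mybph, Myom3, Dhrs7c, Stbd1, Pvr, Arhgdig, Plekhh1, Peg3, Cmbl, S100a8, and the noncoding Gm15310 and A930003A15Rik. Without the pairing by mouse 217 genes also passed, of which 148 were among those of the paired test, and the adjusted p of that fit is given for each gene whose call was lost in it.

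**Figure D1:**
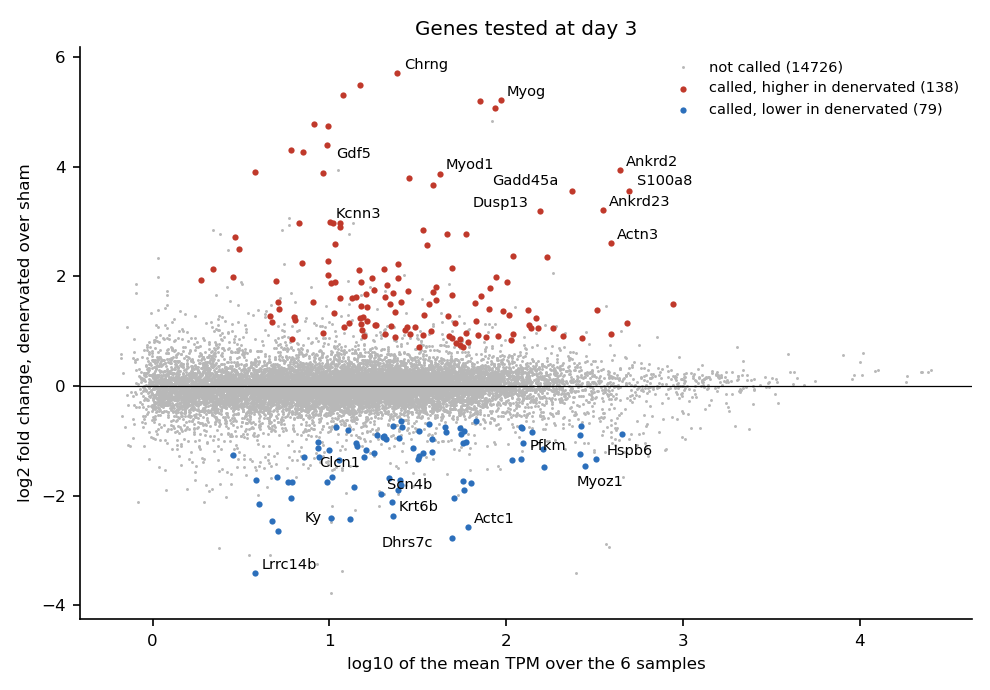
Log2 fold change of denervated over sham (y axis) against the log10 of the mean TPM of the 6 day 3 samples (x axis) for the 14943 genes tested, with the 138 genes that rose and the 79 that fell in color. The rises reach 5.71 (Chrng) and the falls -3.40 (Lrrc14b).

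Subunits of the acetylcholine receptor of the muscle endplate rose, 1 of them by more than any other gene that passed on the log2(TPM + 0.5) scale. Chrng, the gamma subunit of the fetal receptor, was at 0.274, 0.449, and 0.337 TPM in sham and 23, 61.8, and 59.6 TPM in denervated pads, which is 5.71 ± 0.28 on the log2 scale (SE; adjusted p = 0.00611). Chrnd, the delta subunit, was at 6.0, 1.54, and 3.57 TPM and 45.1, 47.7, and 64.4 TPM, which is 3.79 ± 0.34 (adjusted p = 0.0228). Every denervated value of these genes lay far above every sham value. Chrna1, the acetylcholine-binding alpha subunit, rose from 7.29, 3.72, and 4.68 TPM to 50.4, 75.8, and 89.7 TPM, by 3.67 ± 0.32 (adjusted p = 0.0213). Chrnb1, the beta subunit, rose from 14.4, 15.5, and 13.5 TPM to 81.2, 127, and 103 TPM, by 2.78 ± 0.13 (adjusted p = 0.00611). The adult epsilon subunit was the exception, since Chrne had values of 16.9, 21.9, and 29.1 TPM in sham and 13.5, 19.8, and 35.5 TPM in denervated pads and did not pass (log2 fold change -0.05 ± 0.14, adjusted p = 0.882). The list thus had 4 of 5 members that rose and a median of 3.67. Its calls held for 4, 2, and 2 members without mouse 1, 2, and 3.

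Of 15 organizers of the neuromuscular junction 2 rose and 0 fell. Musk, the receptor kinase through which nerve-derived agrin clusters receptors, was at 0.409, 0.344, and 0.445 TPM in sham and 5.23, 6.28, and 4.78 TPM in denervated pads (2.71 ± 0.21, adjusted p = 0.0152). Dok7, the adaptor that activates that kinase, was at 6.97, 5.71, and 5.55 TPM and 20.4, 23, and 29 TPM (1.9 ± 0.17, adjusted p = 0.0229). The other members of the signal did not pass. Agrn had a log2 fold change of -0.06, its receptor Lrp4 one of -0.10, and Rapsn, the scaffold under the receptors, one of 0.88 (adjusted p = 0.0826). Ncam1, an adhesion molecule known to spread along denervated fibers, was at 12.2, 7.66, and 9.88 TPM and 28.3, 46.9, and 53.7 TPM without passing (2.03, adjusted p = 0.0589). Ache, the esterase of the cleft, had a value of -1.14 (adjusted p = 0.0856). The list median was -0.06, near that of all genes, and 1, 0, and 0 calls held without mouse 1, 2, and 3.

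The myogenic transcription factors rose. Myog, which drives the differentiation of myoblasts, was at 7.14, 3.38, and 3.45 TPM in sham and 178, 199.8, and 166 TPM in denervated pads (5.21 ± 0.23, adjusted p = 0.00611). Myod1, the factor of myoblast commitment, rose from 3.58, 5.58, and 4.58 TPM to 42.8, 117, and 77.7 TPM (3.88 ± 0.18, adjusted p = 0.00611). Myf6, the family member most abundant in adult fibers, already had 39.3, 28.9, and 36 TPM in sham and reached 142, 121, and 155 TPM (2.0 ± 0.09, adjusted p = 0.00611). In none of the 3 factors did the denervated values overlap those of sham. Mymk, the membrane protein that lets myoblasts fuse, was near zero in sham with 0.136, 0.0858, and 0.145 TPM and at 5.71, 9.74, and 26.6 TPM in denervated pads (4.27 ± 0.43, adjusted p = 0.0265). Its partner in fusion, Mymx, was at 0.332, 0.418, and 0.41 TPM and 4.68, 2.27, and 7.93 TPM and did not pass (2.48 ± 0.36, adjusted p = 0.0608). Cdh15, the cadherin of satellite cells and myoblasts, rose from 2.21, 1.87, and 2.04 TPM to 8.85, 16.9, and 10.2 TPM (2.24 ± 0.24, adjusted p = 0.0305).

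Of the 14 genes in the myogenic list 11 reached the minimum level, 5 rose, 0 fell, and the median was 2.0. Its calls held for 3, 3, and 3 genes without mouse 1, 2, and 3. The satellite cell factor Pax7 and Myf5 were below the minimum. The 20 cell cycle genes, among them Mki67 (-0.29), included 0 that passed and had a median of -0.26, with 19 of 20 below 0.

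**Figure D2:**
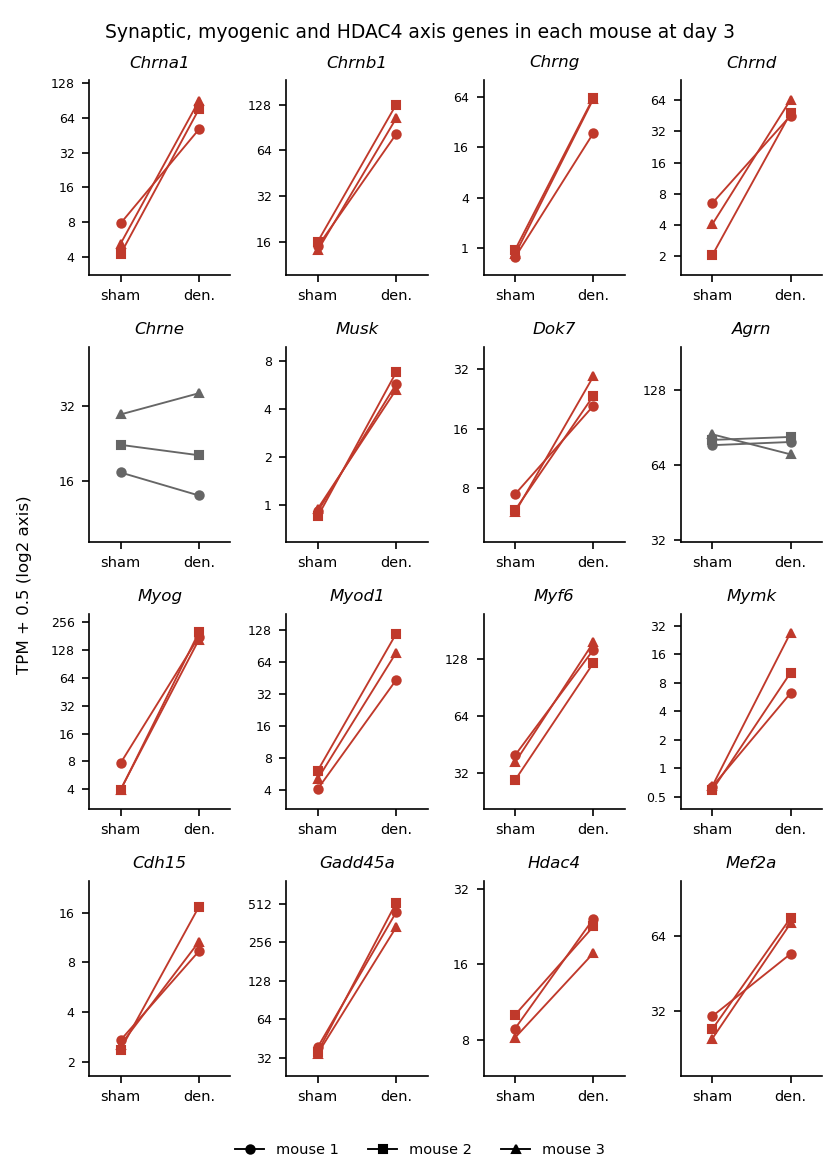
TPM + 0.5 of 16 genes of the receptor, the junction, the myogenic program, and the denervation response (log y axis), with a line joining the sham and denervated (den.) pad of each of the 3 mice, in red for genes that rose and gray for those that did not pass. Chrng rose from below 0.5 TPM to between 23.0 and 61.8 TPM, and Chrne did not move in one direction.

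The axis that couples lost activity to these genes was examined next. Hdac4, the deacetylase that enters fiber nuclei after denervation and represses activity-dependent genes, rose from 8.36, 9.55, and 7.65 TPM to 23.8, 22.2, and 17.2 TPM (1.25 ± 0.11, adjusted p = 0.0215). Mef2a, a partner of the class IIa deacetylases, rose from 30.0, 26.6, and 24.3 TPM to 53.7, 74.9, and 71.3 TPM (1.28 ± 0.16, adjusted p = 0.0473). Gadd45a, a stress protein known to be induced downstream of Hdac4 in denervated fibers, was among the most abundant genes that rose, from 38.3, 35.1, and 34 TPM to 441, 523, and 336 TPM (3.56 ± 0.14, adjusted p = 0.00554). The related deacetylases Hdac9 (-1.39, adjusted p = 0.0727) and Hdac5 (-0.61, adjusted p = 0.0788) had values below 0 and did not pass. Of 11 members tested 3 rose and 0 fell, with a median of 0.32, and 2, 1, and 1 of the calls held without mouse 1, 2, and 3.

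Of 15 other genes known from denervated muscle 7 rose and 0 fell, with a median of 1.4. This list was put together from denervation studies, so that its direction is not independent of such data. Ppp1r27, a regulatory subunit of protein phosphatase 1, was at 4.54, 1.47, and 3.88 TPM in sham and 219, 118, and 81.6 TPM in denervated pads (5.19 ± 0.33, adjusted p = 0.00991). Dusp13, a dual-specificity phosphatase of muscle and testis, rose from 26.3, 34.4, and 29.7 TPM to 259, 326, and 249.9 TPM (3.18 ± 0.09, adjusted p = 0.00554). It overlaps Samd8, which also rose (1.68, adjusted p = 0.00744), and the kit does not mark strand, so that reads of overlapping genes can be shared. Runx1, a transcription factor that limits wasting in denervated fibers, rose from 8.8, 8.0, and 7.77 TPM to 39, 48.9, and 34.3 TPM (2.23 ± 0.13, adjusted p = 0.00777). Tnfrsf12a, the receptor for TWEAK, rose from 27.7, 40.7, and 33.6 TPM to 118, 257, and 182 TPM (2.38 ± 0.13, adjusted p = 0.00776). Traf3ip3 (2.89, adjusted p = 0.0124), the AMP deaminase Ampd3 (1.72, adjusted p = 0.0326), and the decoy receptor Tnfrsf23 (1.4, adjusted p = 0.0416; 0.0655 without the pairing) rose as well. The calls held for 3, 5, and 5 genes without mouse 1, 2, and 3.

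Sodium and chloride channels of the fiber changed in both directions. The adult sodium channel Scn4a was at 16.9, 12.3, and 11.9 TPM in sham and at 15.1, 15.8, and 19.7 TPM in denervated pads without passing (0.30 ± 0.18, adjusted p = 0.456). Scn4b, a channel beta subunit, fell from 34.6, 34.3, and 25.8 TPM to 7.78, 7.1, and 8.18 TPM (-1.96 ± 0.14, adjusted p = 0.0141). Fgf13, an intracellular protein that binds sodium channels, rose from 12.9, 10.1, and 10.2 TPM to 64.9, 112, and 66.3 TPM (2.78 ± 0.23, adjusted p = 0.0179). Clcn1, the chloride channel that keeps the fiber membrane stable and whose loss causes myotonia, fell from 13.4, 19.9, and 14 TPM to 2.71, 5.81, and 5.9 TPM (-1.66 ± 0.20, adjusted p = 0.0397; 0.066 without the pairing). Of 9 members tested 2 rose and 2 fell, and 1, 2, and 2 of these calls held without mouse 1, 2, and 3.

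Potassium channels also split, with 2 that rose and 3 that fell among 19 tested and a list median of -0.22. Kcnn3, the small-conductance calcium-activated channel of denervated fibers, rose from 2.32, 1.79, and 1.47 TPM to 15.2, 20.2, and 19.4 TPM (2.99 ± 0.20, adjusted p = 0.0106). Its relative Kcnn2 was at 3.35, 3.99, and 4.63 TPM in sham and 1.26, 0.438, and 0.832 TPM in denervated pads and did not pass (-1.78 ± 0.28, adjusted p = 0.0691). The inward rectifier Kcnj2, which sets the resting potential, fell from 12, 12.8, and 10.5 TPM to 5.28, 5.45, and 5.91 TPM (-1.02 ± 0.12, adjusted p = 0.042). The voltage-gated channels Kcna7 (-1.66 ± 0.16, adjusted p = 0.0238) and Kcnc1 (-1.71 ± 0.17, adjusted p = 0.0265; 0.114 without the pairing) fell. Kcna7 was at 10.3, 8.54, and 5.26 TPM in sham and at 2.3, 2.48, and 1.65 TPM in denervated pads, and the groups did not overlap. Across all 41 Kcn genes tested the median was -0.11, with 31 below 0. Of the calls, 1, 0, and 0 held without mouse 1, 2, and 3.

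Of the calcium handling genes 2 fell. Dhrs7c, a dehydrogenase of the sarcoplasmic reticulum, fell from 60.3, 109, and 91.2 TPM to 7.68, 14.3, and 15.1 TPM (-2.78 ± 0.10, adjusted p = 0.00554). Hrc, a calcium-binding protein in the lumen of the reticulum, fell from 137, 179.8, and 146 TPM to 46.8, 58.7, and 77.8 TPM (-1.35 ± 0.16, adjusted p = 0.0413). These were the only calls among 24 genes, whose median was -0.01, and 1, 1, and 2 of them held without mouse 1, 2, and 3. The release channel Ryr1 (-0.08) and its voltage sensor Cacna1s (0.37) did not pass. The pump inhibitors had opposite values that did not pass either. Pln, the inhibitor of heart and slow fibers, was at 2.29, 2.58, and 1.88 TPM in sham and 8.52, 37.6, and 28.3 TPM in denervated pads (2.97 ± 0.42, adjusted p = 0.0593), and sarcolipin (Sln) was at 114, 42.5, and 111 TPM and 65.7, 11.7, and 27.7 TPM (-1.53 ± 0.25, adjusted p = 0.0756). The related micropeptide Mrln (myoregulin), which is in no list, rose from 19.1, 18.3, and 22.6 TPM to 61.1, 68.4, and 51.9 TPM (1.57 ± 0.15, adjusted p = 0.0245).

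Few genes of the sarcomere passed, and most of those that did encode accessory proteins. Of the myosin heavy chains only Myh1, Myh2, and Myh4 reached the minimum, and none of the 3 passed. Myh4, the fast heavy chain, was at 1301, 924, and 887 TPM in sham and 587, 663, and 849.7 TPM in denervated pads (-0.56 ± 0.23, adjusted p = 0.289). The embryonic Myh3 and neonatal Myh8 chains were below the minimum. Among 20 light chain, actin, troponin, and tropomyosin genes 1 rose and 2 fell, with a median of 0.13, and 1, 2, and 1 of these calls held without mouse 1, 2, and 3. Mybph, a myosin-binding protein known to rise in denervated and diseased muscle, went from 24.8, 70.3, and 71.2 TPM to 129, 320.3, and 406 TPM (2.35 ± 0.10, adjusted p = 0.00554; 0.128 without the pairing). Actc1, the cardiac actin, fell from 18.9, 205, and 98.1 TPM to 4.51, 18.1, and 19.8 TPM (-2.56 ± 0.31, adjusted p = 0.0393; 0.285 without the pairing), and its groups overlapped because the sham level of mouse 1 was low. Mylk2, the kinase of the myosin light chain, fell from 89.1, 22.8, and 27 TPM to 32.1, 10.9, and 10.5 TPM (-1.27 ± 0.11, adjusted p = 0.0224; 0.423 without the pairing), with overlap between the groups since mouse 1 was high on both sides.

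The Z-disc and titin group held 5 rises and 1 fall among 28 genes, with a median of -0.11. All 3 members of the muscle ankyrin repeat family rose. Ankrd1 went from 8.13, 4.39, and 2.32 TPM to 138, 217, and 149 TPM (5.07 ± 0.36, adjusted p = 0.0124). Ankrd2 went from 170.0, 23, and 28 TPM to 1192, 784, and 434 TPM (3.93 ± 0.43, adjusted p = 0.0325; 0.0848 without the pairing), and Ankrd23 from 114, 53.4, and 46.8 TPM to 566, 827, and 497 TPM (3.21 ± 0.32, adjusted p = 0.0265). These proteins sit on titin at the I-band and respond to stretch. Actn3, the alpha-actinin of fast fibers, rose from 61.2, 141, and 124 TPM to 402, 1019, and 598 TPM (2.61 ± 0.14, adjusted p = 0.00744). Myom3, an M-band protein, rose from 27.9, 45.2, and 55.7 TPM to 111, 185, and 184 TPM (1.9 ± 0.10, adjusted p = 0.0067). Myoz1, a calcineurin-binding protein of fast Z-discs, fell from 422, 408, and 397 TPM to 164, 140.2, and 145 TPM (-1.45 ± 0.09, adjusted p = 0.00959). The calls held for 4, 2, and 3 genes without mouse 1, 2, and 3. Ttn (-0.06), Neb (0.46), and Tcap (-1.66, adjusted p = 0.102) did not pass. In the dystrophin complex 1 of 14 rose, the alpha-dystrobrevin gene Dtna (1.0 ± 0.09, adjusted p = 0.0213).

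**Figure D3:**
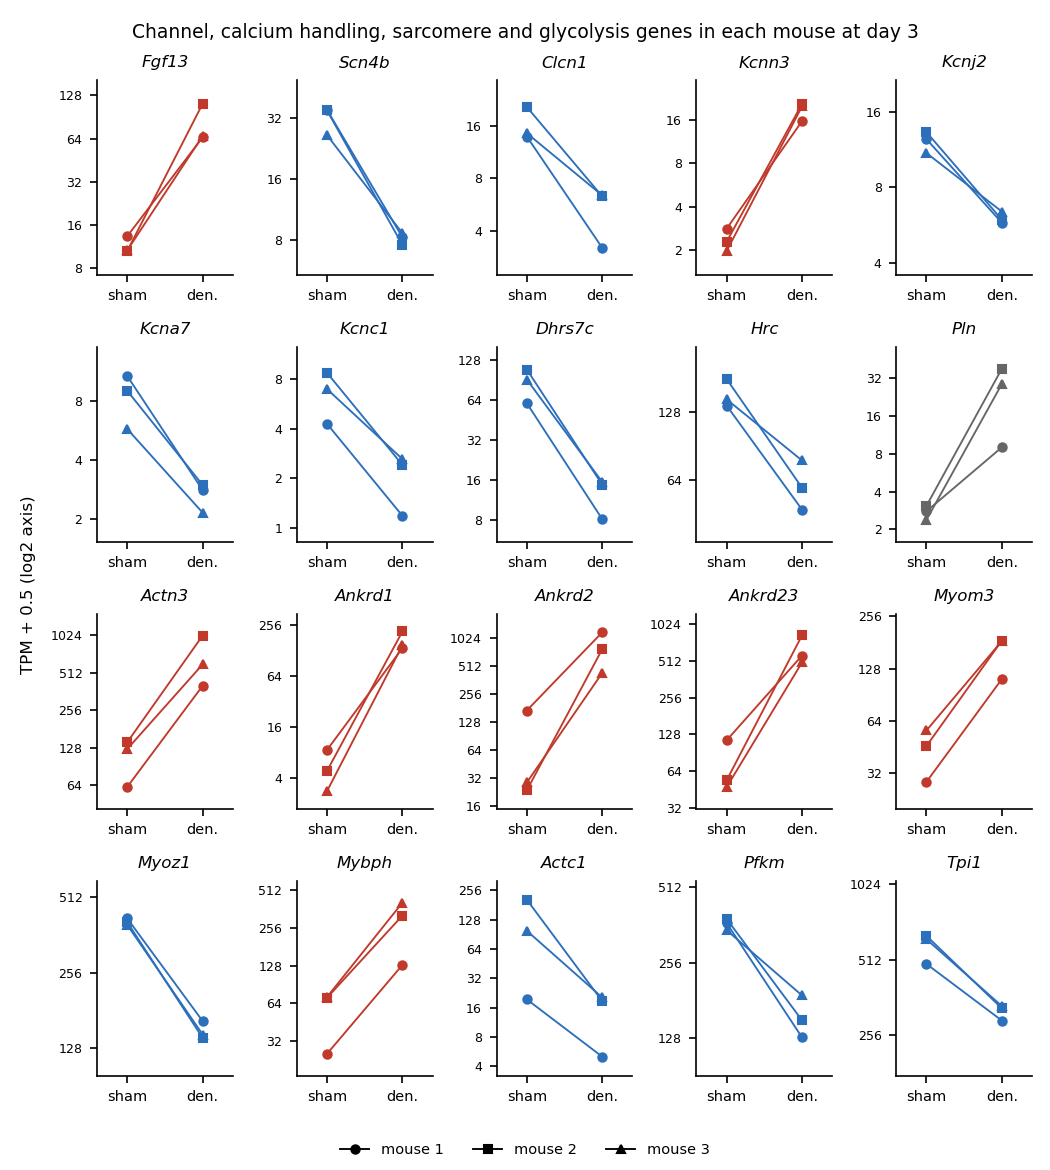
TPM + 0.5 of 20 channel, calcium handling, sarcomere, and glycolysis genes (log y axis), with a line joining the sham and denervated (den.) pad of each of the 3 mice, in red for genes that rose, blue for those that fell, and gray for Pln, which did not pass. Kcnn3, Ankrd1, Ankrd23, and Actn3 rose in all 3 mice, and Scn4b, Clcn1, Kcna7, and Dhrs7c fell in all 3.

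Genes of energy metabolism had mostly values below 0, and few passed. Among 28 genes of glycolysis, glycogen, and creatine kinase 0 rose, 3 fell, and 22 were below 0, with a median of -0.47. Pfkm, the committed step of glycolysis in muscle, fell from 369, 383, and 345 TPM to 128, 150.3, and 189 TPM (-1.24 ± 0.15, adjusted p = 0.0416). Tpi1, triosephosphate isomerase, fell from 492, 638, and 618 TPM to 292, 327, and 334 TPM (-0.87 ± 0.10, adjusted p = 0.0376). Phkg1, the catalytic subunit of phosphorylase kinase, fell from 30.5, 73.8, and 56.6 TPM to 13.2, 27.2, and 28.2 TPM (-1.2 ± 0.11, adjusted p = 0.023; 0.249 without the pairing). Of these calls 0, 0, and 1 held without mouse 1, 2, and 3, and the muscle enolase Eno3 (-1.15, adjusted p = 0.0518) narrowly missed. Scaled to the muscle markers, 2 of the 28 genes passed as higher and 2 as lower.

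In the citrate cycle and fatty acid oxidation 1 of 24 genes fell, Idh2, the mitochondrial isocitrate dehydrogenase, from 247, 134, and 144 TPM to 80.3, 60.2, and 61.8 TPM (-1.32 ± 0.12, adjusted p = 0.0229; 0.0715 without the pairing), and the median was -0.21. The call was lost without any one of the mice (adjusted p = 0.0637, 0.109, and 0.0753). The 30 nuclear genes of the respiratory chain had 0 calls and a median of -0.05, and the 13 mitochondrially encoded genes 0 calls and a median of 0.20. Metabolic genes outside the lists that fell included Mdh1, cytosolic malate dehydrogenase (313, 355, and 353 TPM in sham, 178, 190.0, and 182 TPM in denervated, -0.89 ± 0.09, adjusted p = 0.0265), and Hadh, which oxidizes hydroxyacyl-CoA (-0.76, adjusted p = 0.0393). Adssl1, the muscle adenylosuccinate synthase of the purine nucleotide cycle, fell (-1.04, adjusted p = 0.0177), as did the lactate transporter Slc16a3 (-1.04, adjusted p = 0.0265) and Perm1, a regulator of mitochondrial genes (-1.33, adjusted p = 0.0213; 0.0664 without the pairing). Stbd1, which tethers glycogen to membranes, rose from 8.88, 11.4, and 9.66 TPM to 57.8, 67.8, and 58.6 TPM (2.57 ± 0.08, adjusted p = 0.00554). Prkag3, the AMP kinase subunit of fast muscle, also rose (1.97, adjusted p = 0.0365; 0.108 without the pairing).

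Few genes of the proteolytic systems of muscle wasting passed at day 3. Trim63 (MuRF1), the ligase that marks thick filament proteins, was at 68.2, 22, and 21.3 TPM in sham and 128, 37.4, and 34.8 TPM in denervated pads (0.78 ± 0.09, adjusted p = 0.0331). It was higher in each mouse by 0.90, 0.75, and 0.69 on the log2 scale, but the groups overlapped because both values of mouse 1 were high, and it passed neither without the pairing (adjusted p = 0.652) nor without any 1 of the mice (0.129, 0.19, and 0.0936). Fbxo32 (atrogin-1) was at 17.7, 5.11, and 6.55 TPM and 36.2, 9.29, and 8.64 TPM and did not pass (0.73 ± 0.15, adjusted p = 0.112). Trim63 was the only call among 17 ubiquitin ligase and ubiquitin genes, whose median was 0.13. The 31 proteasome subunits had 0 calls and a median of 0.24, with 30 above 0 and the highest value in Psmb5 (0.63, adjusted p = 0.069). The 15 autophagy and lysosome genes had 0 calls and a median of 0.07, with Sqstm1, an autophagy receptor, at 0.75 (adjusted p = 0.065).

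Growth signals were represented by single genes. Gdf5, the BMP ligand that denervated muscle makes against wasting, was at 0.366, 0.377, and 0.319 TPM in sham and 14.4, 31.1, and 11.8 TPM in denervated pads (4.39 ± 0.29, adjusted p = 0.0104; 0.0596, 0.035, and 0.0481 without mouse 1, 2, and 3). It was the only call among 20 BMP and myostatin genes (median -0.03), with myostatin itself (Mstn) at -0.54. Akt2, the AKT isoform of insulin signaling, rose from 66.2, 72.5, and 77.3 TPM to 141, 209.9, and 225 TPM (1.38 ± 0.12, adjusted p = 0.022; 0.0493, 0.125, and 0.0774 without mouse 1, 2, and 3). It was the only call among 19 genes of the IGF, AKT, mTOR, and FoxO group (median 0.03), and Foxo1 (0.09) did not pass. Castor2, a protein that restrains mTORC1, rose (1.63, adjusted p = 0.0299). The TGF-beta receptor Tgfbr1 (10.2, 8.8, and 7.53 TPM to 27, 21.3, and 17.8 TPM, 1.26 ± 0.09, adjusted p = 0.0139) and its effector Smad3 (1.03, adjusted p = 0.0229) rose, as did the MAP kinase scaffold Ksr1 (1.1, adjusted p = 0.0141). The hormone Fgf21 was low on both sides, with 0.361, 0.795, and 0.223 TPM in sham and 3.62, 4.56, and 1.65 TPM in denervated pads (1.93 ± 0.25, adjusted p = 0.0471; 0.0897 without the pairing).

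Stress and signaling genes of injury passed in a few cases. Among 21 immediate early genes 2 rose and 17 were below 0. Atf3 went from 4.72, 7.35, and 4.01 TPM to 12.9, 24.8, and 14.7 TPM (1.6 ± 0.12, adjusted p = 0.0151; 0.0697 without the pairing) and Jun from 17.9, 23.5, and 16.7 TPM to 41.7, 49, and 33.9 TPM (1.08 ± 0.09, adjusted p = 0.0177; 0.0521 without the pairing). Both are transcription factors of injured nerve and muscle, while the activity-regulated Egr1 (-0.28) did not pass. Without mouse 1, 2, and 3 the adjusted p was 0.0498, 0.107, and 0.0633 for Atf3 and 0.0827, 0.116, and 0.0633 for Jun, so that only the call of Atf3 without mouse 1 held. In the IL-6 family Ctf1, the cytokine cardiotrophin 1, rose (10.9, 11, and 10.2 TPM to 24.3, 19.7, and 18.4 TPM, 0.92 ± 0.11, adjusted p = 0.037), as 1 of 15 genes. Of 24 heat shock genes 0 rose and 2 fell, with a median of 0.30. Hspb6 (Hsp20), a small chaperone abundant in muscle, fell from 542, 429, and 417 TPM to 179, 178, and 189 TPM (-1.33 ± 0.12, adjusted p = 0.0229), and Dnaja4 fell (-0.63, adjusted p = 0.0471). Under the scaling to muscle markers 4 heat shock genes passed as higher and 1 as lower. Eda2r, a receptor of the TNF family induced in wasting muscle, rose from 2.47, 1.14, and 1.88 TPM to 9.28, 7.74, and 7.28 TPM (1.92 ± 0.18, adjusted p = 0.0238).

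Of the immune genes few passed. The summed level of 14 macrophage markers was 597, 377, and 235 TPM in sham and 289, 405, and 543 TPM in denervated pads, lower in mouse 1 and higher in mouse 3. In the fit 10 of the 14 were below 0 and 4 above, with a median of -0.12 and 0 calls. Ccl2, the chemokine of monocytes, rose from 6.13, 9.47, and 7.85 TPM to 14.6, 18, and 21.6 TPM (1.16 ± 0.13, adjusted p = 0.0349; 0.0556 without the pairing) as the only call among 18 chemokine genes. Cd68, a lysosomal protein of macrophages and 1 of the 4 markers above 0, had 53, 22.1, and 19.3 TPM and 90.1, 47.1, and 64.1 TPM and did not pass (adjusted p = 0.0762). The 17 interferon-stimulated genes had 0 calls and a median of 0.07. S100a8, an alarmin of neutrophils and stressed epidermis, rose from 136, 87.4, and 23.9 TPM to 1232, 1156, and 339 TPM (3.56 ± 0.15, adjusted p = 0.00554; 0.0977 without the pairing). It rose by 3.17, 3.72, and 3.8 on the log2 scale in the 3 mice. Its partner S100a9, with which it forms calprotectin, was at 176, 109, and 6.92 TPM and 196, 58.6, and 24.9 TPM and did not pass (0.35 ± 0.51, adjusted p = 0.772). Of 6 neutrophil markers tested S100a8 alone rose, and Ngp (-0.40) did not pass.

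Skin genes had mostly values below 0, and few passed. In the 17 alarmins and stress keratins tested 1 rose (S100a8) and 1 fell, with a median of -0.66. Krt6b, a keratin of hair follicle and of wounded or mucosal epithelium, was at 14.9, 7.02, and 95.5 TPM in sham and 2.32, 1.3, and 15.7 TPM in denervated pads (-2.36 ± 0.14, adjusted p = 0.00777; 0.416 without the pairing). The difference was -2.45, -2.07, and -2.57 in mice 1, 2, and 3, so it was not confined to the sham sample of mouse 3 that stood apart, and without mouse 3 the log2 fold change was -2.26 (adjusted p = 0.0552). Krt16, a keratin of activated epidermis, did not pass (-0.56, adjusted p = 0.0593). The 12 epidermal markers had a median of -0.27 and the 9 sebaceous markers one of -0.56, all below 0 with 0 calls. All 55 hair keratin-associated protein genes were below 0 with a median of -0.74, and 1 of them, Krtap19-1, fell (-0.87, adjusted p = 0.023; 0.624 without the pairing). The 16 regulators of hair growth had 0 calls and a median of -0.24. Outside the lists, Dsc1, a desmosomal cadherin of upper epidermis, fell (25.5, 26.4, and 28.2 TPM to 14.6, 12.3, and 15.3 TPM, -0.91 ± 0.10, adjusted p = 0.0325), and Sult2b1, the cholesterol sulfotransferase of the skin barrier, fell (-0.75, adjusted p = 0.0445; 0.186 without the pairing). The summed hair shaft level was lower in the same samples, and its part in these values was not tested.

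Few nerve and matrix genes passed at day 3. In the list of repair Schwann cell and neurotrophic genes 1 of 13 rose (Jun), and the median was 0.44. Gdnf (1.33, adjusted p = 0.0835), Ngfr (0.65, adjusted p = 0.0826), and Gap43 (0.80, adjusted p = 0.121) did not pass. The 12 myelin markers had a summed level of 406, 1199, and 653 TPM in sham and 505, 553, and 526 TPM in denervated pads, which overlap. The 20 collagen and matrix genes had 0 calls and a median of 0.06. Timp1, an inhibitor of matrix proteases, rose from 10.4, 10.4, and 10.6 TPM to 28.2, 37.9, and 39.8 TPM (1.69 ± 0.13, adjusted p = 0.0141; 0.0364, 0.0886, and 0.0633 without mouse 1, 2, and 3), alone among 18 proteases and inhibitors. Scx (scleraxis), a transcription factor of tendon, rose from 6.56, 7.37, and 7.61 TPM to 31.7, 92.3, and 56.3 TPM (2.85 ± 0.27, adjusted p = 0.023), though Scx lies within Bop1. The polyamine genes (13), the clock genes (17), and the 82 ribosomal protein genes had 0 calls each, with medians of -0.09, -0.07, and 0.14.

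**Figure D4:**
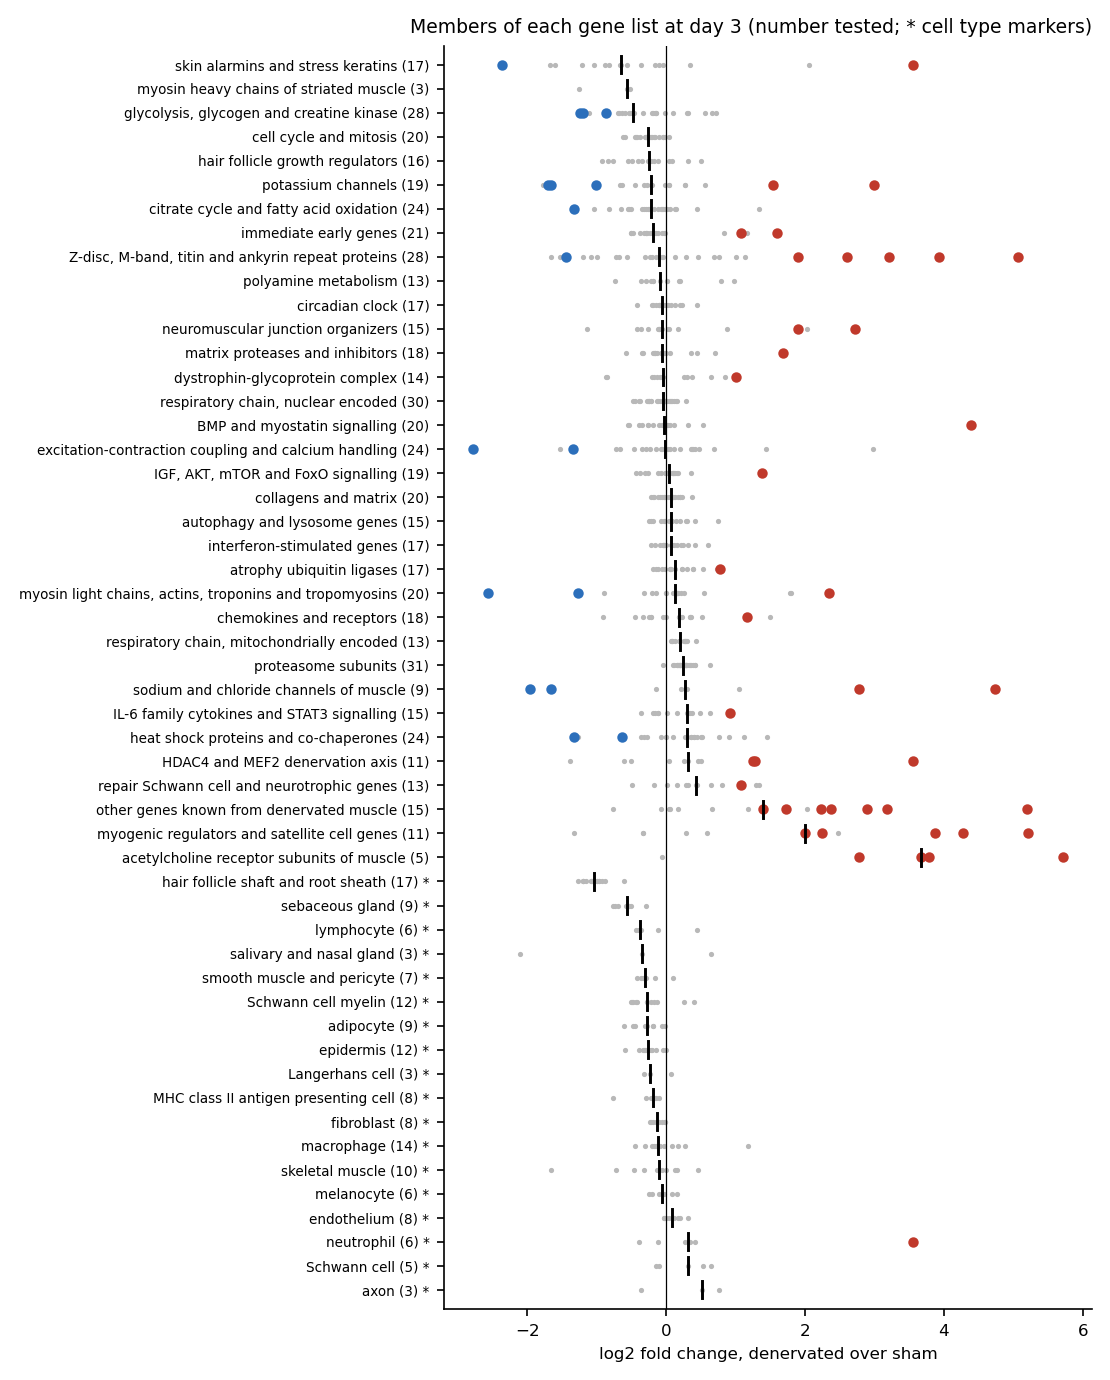
Log2 fold change (x axis) of every tested member of the gene lists (rows), with the list median and the members that passed the test in color. The receptor list has the highest median (3.67) and hair shaft markers the lowest (-1.05).

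Most of the genes that passed, 159 of 217, were in none of the lists. Those named next were picked with their values in view. Arhgdig, an inhibitor of small GTPases, was at 1.99, 2.2, and 1.72 TPM in sham and 20.0, 18, and 18.9 TPM in denervated pads (2.98 ± 0.13, adjusted p = 0.00554), and it overlaps Rgs11. Plekhh1 rose from 2.36, 1.98, and 2.2 TPM to 21.1, 24.2, and 16.9 TPM (2.97 ± 0.16, adjusted p = 0.00687), Ttyh1 from 2.31, 2.8, and 2.54 TPM to 12.3, 28.2, and 16.5 TPM (2.6 ± 0.20, adjusted p = 0.0167), and Pvr, the nectin-like poliovirus receptor, from 9.13, 6.4, and 6.51 TPM to 39.5, 31, and 30.4 TPM (2.13 ± 0.09, adjusted p = 0.00554). Cited1, a transcriptional coactivator, rose from 1.93, 0.121, and 0.594 TPM to 17.6, 12.8, and 22.1 TPM (3.89 ± 0.34, adjusted p = 0.0218). The imprinted gene Peg3 rose from 13.5, 7.33, and 8.74 TPM to 48.3, 32, and 37.6 TPM (1.97 ± 0.10, adjusted p = 0.00611), its neighbor Zim1 from 1.11, 1.23, and 0.339 TPM to 5.73, 4.49, and 4.13 TPM (1.98 ± 0.24, adjusted p = 0.0416), and Snrpn from 19.6, 27, and 23 TPM to 41.5, 44.8, and 46.8 TPM (0.93 ± 0.10, adjusted p = 0.0335). Wfs1, a membrane protein of the endoplasmic reticulum, rose from 13.8, 23.9, and 16.6 TPM to 63.8, 89.4, and 90.2 TPM (2.15 ± 0.12, adjusted p = 0.00777), and Hacd1, a fatty acid elongation enzyme of muscle whose loss causes myopathy, from 17.8, 17, and 17.3 TPM to 54.5, 66.8, and 66.4 TPM (1.81 ± 0.11, adjusted p = 0.00788).

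The most abundant genes that rose included Myl12a, a regulatory light chain of nonmuscle myosin, from 556, 420.2, and 404 TPM to 1188, 1522, and 1169 TPM (1.49 ± 0.18, adjusted p = 0.0385), which overlaps Myom1. Lgals1 (galectin 1) rose from 260.1, 343, and 299.6 TPM to 562, 716, and 719 TPM (1.14 ± 0.10, adjusted p = 0.0218), the tetraspanin Cd63 from 314, 253, and 238 TPM to 520.1, 537, and 497 TPM (0.96 ± 0.12, adjusted p = 0.042), and Mtch1, a mitochondrial outer membrane protein, from 169.5, 190.2, and 179.9 TPM to 422, 496, and 503 TPM (1.39 ± 0.09, adjusted p = 0.0106). Each of these changed by less than 3-fold, yet no denervated value reached down to the sham values. Noncoding genes were also among the rises. A930003A15Rik, a long noncoding RNA at chr16:19876567-19884274 on build GRCm38, was at 0.364, 0.153, and 0 TPM in sham and 23.1, 35, and 30.6 TPM in denervated pads (5.5 ± 0.27, adjusted p = 0.00611). Gm15310, which lies within Pigp, was at 0.388, 0, and 0 TPM and 25.2, 24.2, and 21.3 TPM. Pigp itself rose (1.05, adjusted p = 0.0229), and the reads of these overlapping genes may not be separable.

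Falls in genes outside the lists were led by Lrrc14b, and the others are a selection and not a ranking. Lrrc14b, a leucine-rich repeat protein of striated muscle, fell from 5.76, 9.39, and 6.84 TPM to 0.258, 0, and 0.511 TPM (-3.4 ± 0.34, adjusted p = 0.0265). Lsmem1 fell from 10.3, 7.61, and 7.05 TPM to 0.645, 1.52, and 1.18 TPM (-2.47 ± 0.29, adjusted p = 0.037) and Smco1 from 16.9, 27.4, and 22.3 TPM to 2.08, 5.51, and 4.14 TPM (-2.42 ± 0.14, adjusted p = 0.00815). Ky, the kyphoscoliosis peptidase needed for muscle growth, fell from 10.3, 23.3, and 18.6 TPM to 1.19, 3.18, and 4.81 TPM (-2.41 ± 0.21, adjusted p = 0.0212; 0.0795 without the pairing). Smtnl1, a smoothelin-like protein of muscle, fell from 42.9, 38.1, and 29.8 TPM to 11, 6.03, and 7.79 TPM (-2.12 ± 0.17, adjusted p = 0.0166). Apobec2, the muscle member of a deaminase family, fell from 62.6, 101, and 80.2 TPM to 14.5, 20.4, and 23.6 TPM (-2.03 ± 0.13, adjusted p = 0.00959), and Mlf1, a myeloid leukemia factor abundant in muscle, from 75.9, 112, and 85.8 TPM to 27, 24.5, and 20.7 TPM (-1.89 ± 0.16, adjusted p = 0.0183). Cmbl, a hydrolase, went from 37.9, 41.2, and 36.6 TPM to 10.8, 10.6, and 8.87 TPM (-1.89 ± 0.09, adjusted p = 0.00611). Ptp4a3, a phosphatase, fell from 409.9, 148, and 174 TPM to 129.9, 56.7, and 64.9 TPM (-1.48 ± 0.10, adjusted p = 0.0104; 0.218 without the pairing). Capn3, the calpain lost in a limb-girdle dystrophy, fell from 9.79, 12.7, and 15.4 TPM to 3.94, 5.68, and 4.82 TPM (-1.3 ± 0.14, adjusted p = 0.0299), and Fhl3, a LIM protein that binds actin, from 88.9, 88.3, and 84.6 TPM to 18.3, 26.8, and 35.4 TPM (-1.73 ± 0.20, adjusted p = 0.0376).

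Substrate adaptors of ubiquitin ligases changed in both directions. Of 15 Asb genes 1 rose and 2 fell, with a median of -0.22. Asb5 rose from 41.7, 31.5, and 35.1 TPM to 128, 126, and 123 TPM (1.79 ± 0.10, adjusted p = 0.00777), and Asb12 fell from 10.8, 10.7, and 8.45 TPM to 1.89, 2.37, and 1.88 TPM (-2.04 ± 0.14, adjusted p = 0.0106), as did Asb11 (-1.72, adjusted p = 0.023; 0.135 without the pairing). Of 30 Klhl genes 1 rose and 2 fell, with a median of 0.01. Klhl30 rose from 11.2, 7.01, and 8.72 TPM to 28.5, 37.9, and 33.8 TPM (1.85 ± 0.21, adjusted p = 0.0365), and Klhl33 (-1.75, adjusted p = 0.0169) and Klhl31 (-1.17, adjusted p = 0.0457; 0.124 without the pairing) fell. These families were chosen after their values were seen, and nothing is tested over them.

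To place day 3 in the time course, its difference between sides was compared with that at day 1 and day 7 in one fit of 18 samples with the mouse as a block. The mice of each day are different animals. Against day 1, 68 of 14757 genes differed (0.461%), 48 of them with a higher value at day 3 and 20 with a lower one. This test and the one at day 3 alone use the same day 3 samples. The log2 fold changes of Arhgdig at days 1, 3, and 7 were 0.12, 2.98, and 2.03, with a day 3 minus day 1 difference of 2.86 ± 0.27 (SE; adjusted p = 0.00865). Those of Fgf13 were -0.15, 2.78, and 1.82 (difference 2.93 ± 0.39, adjusted p = 0.0209), and Actn3 was near 0 at day 1 and at 2.61 and 1.64 on days 3 and 7 (2.61 ± 0.40, adjusted p = 0.0414). These genes had little difference between sides at day 1. The receptor genes Chrna1 (1.1 before and 3.67 at day 3, adjusted p = 0.0485) and Chrnb1 (1.00 and 2.78, adjusted p = 0.0276) differed between these days too. Other genes with a later rise were Kcnn3 (0.49 at day 1, adjusted p = 0.0142), Runx1 (0.55, 0.0199), Dok7 (-0.17, 0.0486), Mef2a (-0.31, 0.0199), and Akt2 (0.20, 0.0276). Of these 10 genes Arhgdig, Kcnn3, Runx1, and Mef2a also passed without the pairing, and Fgf13 (0.0584), Actn3 (0.407), Chrna1 (0.17), Chrnb1 (0.245), Dok7 (0.244), and Akt2 (0.128) did not. The genes with a lower value at day 3 than at day 1 rest on fewer fits. Without the pairing, without day 3 mouse 2, and without day 3 mouse 3, 0 genes were lower, and without day 3 mouse 1 there were 9. They included Sprr1a, a cornified envelope precursor (0.97 and then -0.67, adjusted p = 0.0117; 0.297 without the pairing), Tgm1, the envelope transglutaminase (0.46 and -0.68, adjusted p = 0.0416; 0.0871 without the pairing), and the muscle gene Sln (0.94 and -1.53, adjusted p = 0.0218; 0.33 without the pairing).

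The test of day 3 against day 1 rested on few animals. Without the pairing 18 genes differed, all higher at day 3. With day 3 mouse 1, 2, or 3 left out and all mice of the other days kept, 46, 6, and 1 genes did. Against day 7 only 1 gene differed at the threshold (0.00678%), with 1670 at an unadjusted p under 0.05. That gene was Dusp13, with 3.18 at day 3 and 1.32 at day 7 (difference 1.87 ± 0.18, adjusted p = 0.0386). It did not pass without the pairing (adjusted p = 0.64), where 0 genes differed, nor without day 3 mouse 1, 2, or 3 (0.187, 0.332, and 0.127). The 1 gene that differed without day 3 mouse 1 was Cited1 (0.00641). A miss of the threshold does not show that the days are alike.

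**Figure D5:**
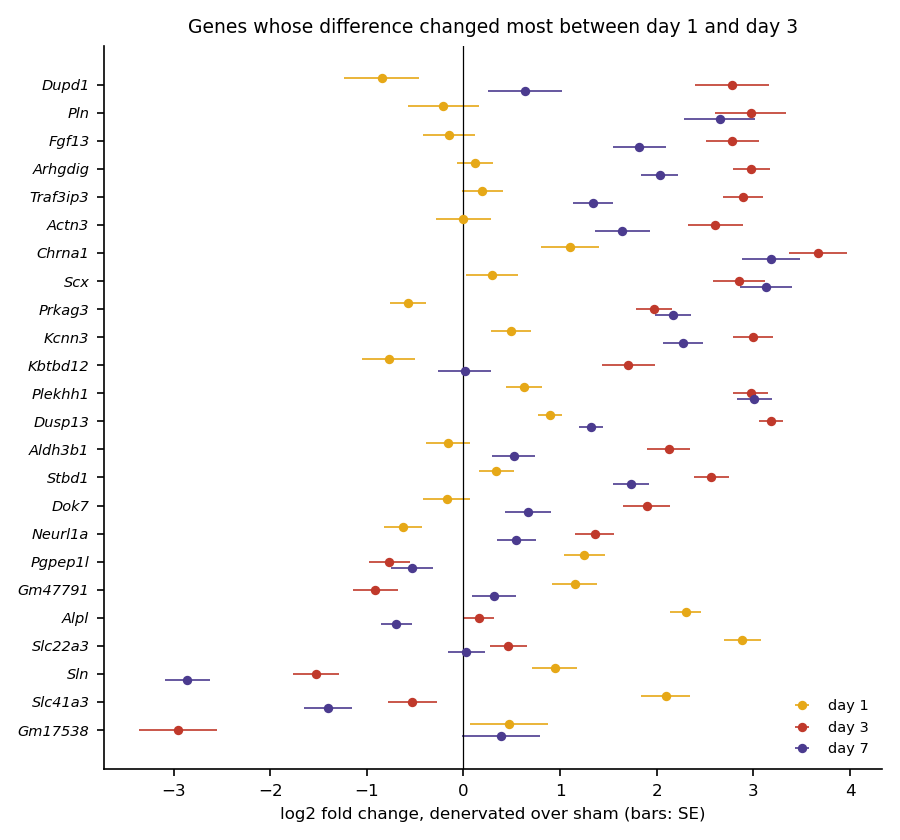
Log2 fold change of denervated over sham at days 1, 3, and 7 for genes whose difference at day 3 was unlike that at day 1, with bars of 1 SE from the fit of all 18 samples. Arhgdig was at 0.12 at day 1 and 2.98 at day 3, and the largest difference between these days was that of Dupd1, from -0.85 to 2.78.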

How the data were processed

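RNA was sequenced from both whisker pads of 9 mice, 3 at each of days 1, 3, and 7, and the 6 day 3 samples are the subject here. Per the labels and the study's methods, libraries were made with a TruSeq kit that does not mark strand, base calls came from bcl2fastq 2.17.1.14, ParDRe took out duplicate reads, Fastp trimmed adapters, and Kallisto 0.43.1 assigned reads to the GRCm38 cDNA set before normalization between samples in Sleuth. The signal values the authors deposited are therefore TPM scaled between samples. Their day 3 sums run from 942292 to 1079897, so they are no longer plain TPM. Removing duplicates lowers the values of the most abundant transcripts.

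The 113194 transcripts were matched by identifier to a mouse annotation (98.5% matched, with 99.5% of summed TPM), and TPM were added up within each of 35150 genes. Genes needed at least 1 TPM in at least 47% of samples (3 of 6). limma 3.58.1 in R 4.3.3 fitted log2(TPM + 0.5) with a term for the mouse and 1 for the denervated side, using a trended prior variance, and p values were adjusted by Benjamini-Hochberg with a threshold of 0.05. The labels tie each pair of samples to 1 mouse. Deviations from the group means correlated at 0.40, 0.29, and 0.27 within the 3 mice and at -0.25 to -0.02 between mice. Differences between days were interaction terms in a fit of 18 samples with the mouse as a block. The paired fit of the day 3 samples was tested on simulated data, and the fit of 18 samples was not. Other settings were pseudocounts of 0.1 and 1, minimum levels of above 0 and 5 TPM, scaling by median ratios, to equal sums or to muscle markers, no trend, no pairing, all 18 samples, the highest transcript of a gene, and leaving out each day 3 mouse. Python 3.11.15 with numpy 2.4.6, pandas 2.3.3, and matplotlib 3.10.9 did the other steps.

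Named genes were the 15 largest rises and falls, the 8 most abundant calls in each direction, called or abundant members of the lists, and up to 10 genes that differed between days. The rest of the named genes were picked with their values in view. The lists, comparisons, and rules were chosen with earlier results of these data known. Depth was estimated from the steps of low values and covers counting error only. Of the genes that passed, 54 overlap another gene that is above 0 and 163 overlap none. Reads of overlapping genes may not be separable where their transcripts share sequence. Of the 217 genes, 158 had a promoter in the table. Some genes that are counted within the lists are not reported here. The experiment-wide likelihood ratio test of the study was not run here.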

Additional observations from a re-analysis of the deposited data

Results flagged for a closer look

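The difference between the denervated and the sham side at day 3 was tested against that at the other days in the fit of 18 samples. Values here are the log2 fold change at day 3 minus that at day 1, and each passed at an adjusted p under 0.05. Among the 10 genes with the largest differences, the dual-specificity phosphatase Dupd1 had 3.63, phospholamban (Pln) 3.18, Fgf13 2.93, Arhgdig 2.86, Traf3ip3 2.7, Actn3 2.61, Chrna1 2.57, and Scx 2.56. The pseudogene Gm17538 (-3.42) and the magnesium transporter Slc41a3 (-2.62) were lower at day 3 relative to day 1. Of these 10 genes only Arhgdig and Traf3ip3 also passed without the pairing. Neither Dupd1 (0.804, 6.63, and 3.16 TPM in sham and 16.2, 21.4, and 29.5 TPM in denervated pads at day 3, adjusted p = 0.0608) nor Pln passed in the day 3 samples alone.

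Of the other genes named here, those with a higher difference at day 3 were Prkag3 (2.55), Kcnn3 (2.5), Plekhh1 (2.35), Dusp13 (2.29), Stbd1 (2.23), Dok7 (2.07), Chrnb1 (1.78), Hacd1 (1.75), Tnfrsf12a (1.71), Myom3 (1.68), Runx1 (1.68), Mef2a (1.58), Samd8 (1.46), Tgfbr1 (1.2), Pvr (1.2), Akt2 (1.18), Pigp (1.1), and Ksr1 (1.09). Among them only Kcnn3, Plekhh1, Stbd1, Runx1, Mef2a, Samd8, Tgfbr1, and Pigp also passed without the pairing. Those with a lower difference at day 3, none of which passed without the pairing, were Tgm1 (-1.14), Sult2b1 (-1.23), Sprr1a (-1.64), and Sln (-2.47). Dusp13 also differed between day 3 and day 7, by 1.87. That call was lost without any 1 of the day 3 mice (adjusted p = 0.187, 0.332, and 0.127 without mouse 1, 2, and 3). Without day 3 mouse 3 only Dusp13 differed between days 3 and 1, and without day 3 mouse 2 there were 6 genes.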

How the results depend on the processing

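The number of genes that passed at day 3 (217) was 129 with every gene above 0 TPM, 384 scaled to muscle markers, 81 without the trend, 504 in the fit of all 18 samples, 66 for the highest transcript of each gene, and 42 to 65 without 1 of the mice. With a change of at least 2-fold it was 108, 253, 81, and 66 for minimum, muscle markers, trend, and transcript, and 42 to 65 without 1 of the mice. The main fit had 114 rises and 54 falls of at least 2-fold. With no fold limit the number that passed was between 182 and 293 under the other settings. Every gene that passed kept its direction under every setting in which it was tested. In the fits without 1 of the mice, the pairing, or the trend this could not have come out otherwise. The same holds for the other pseudocounts, the other minimum levels, and the fit of all 18 samples. Without the pairing (replicate block), 217 genes passed, 148 of them shared with the paired fit. Day 3 against day 1 gave 68 genes, 18 without the pairing (0 lower at day 3), and 1 to 46 without 1 of the day 3 mice. Day 3 against day 7 gave 1 gene, 0 without the pairing, and 2 with a pseudocount of 1. It gave 0 to 1 without 1 of the day 3 mice, where that 1 was Cited1 and not Dusp13. Where a setting leaves fewer samples or brings in more genes or samples, the counts follow in part from that, and the other causes were not tested. Of the 116 named genes that passed, 27 did not pass without the pairing, 37 with genes above 0 TPM, 16 scaled to equal sums, 9 scaled to muscle markers, 63 without the trend, 70 for the highest transcript, and 76, 83, and 80 without mouse 1, 2, and 3. In the fit of all 18 samples 110 of the named genes that passed were tested, and 12 of them did not pass there. Among the 12 were Hrc (adjusted p = 0.0724), Hspb6 (0.0573), Adssl1 (0.0987), and Dsc1 (0.14). Named genes with a sign that turned, none of which had passed, are given with their log2 fold change. With values scaled to muscle markers these were Agrn (0.0987), Chrne (0.10), Lrp4 (0.0586), Ryr1 (0.0803), and Ttn (0.0942). For the highest transcript these were Agrn (0.0163). Without 1 of the mice the sign turned for some, with ranges of -0.11 to 0.0407 for Agrn, -0.22 to 0.0717 for Chrne, -5.20 to 1.05 for Krt13, -0.24 to 0.11 for Ryr1, -0.37 to 0.97 for S100a9, and -0.19 to 0.18 for Ttn. The paired fit of 3 mice has 2 residual degrees of freedom. Genes under 1 TPM rest on few reads.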

Other observations

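Genes of RNA and protein handling were among those with a smaller rise. Prmt1, the main arginine methyltransferase, rose from 178, 194, and 192 TPM to 349, 363, and 327 TPM (0.88 ± 0.09, adjusted p = 0.0305), and Dars, the aspartyl-tRNA synthetase, from 38.3, 38.3, and 39.7 TPM to 65.2, 77.5, and 69.9 TPM (0.86 ± 0.09, adjusted p = 0.0299). Lsm6, a subunit of the complexes that bind small RNAs, rose from 50.8, 53.7, and 54.4 TPM to 167, 133, and 117 TPM (1.36 ± 0.14, adjusted p = 0.0272). Tubulin genes went both ways. Tubb6 rose from 27, 39.6, and 33.5 TPM to 60.9, 98.9, and 142 TPM (1.51 ± 0.20, adjusted p = 0.0483; 0.0896 without the pairing), and Tuba8 fell from 47, 63.2, and 65.7 TPM to 27.5, 31.6, and 38.6 TPM (-0.84 ± 0.09, adjusted p = 0.0326; 0.097 without the pairing). Syt4, a synaptotagmin of membrane trafficking, was low in sham and rose, at 0.461, 0.702, and 0.332 TPM in sham and 4.43, 4.12, and 3.06 TPM in denervated pads (2.13 ± 0.21, adjusted p = 0.0253). Aldh1a1, which makes retinoic acid, fell in each mouse from 131, 63.9, and 53.8 TPM to 83.8, 40.7, and 34 TPM (-0.64 ± 0.08, adjusted p = 0.0385; 0.57 without the pairing), with groups that overlap. This choice of genes was made with the values in view.

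The sham sample of mouse 3 held transcripts of lining epithelium that the other samples nearly lacked. Besides Krt13 and Krt4, the late cornified envelope genes Lce3a, Lce3b, and Lce3e were at 56.8, 66.3, and 76.5 TPM there and at no more than 2.02, 2.02, and 2.19 TPM elsewhere. Slpi, an antiprotease of mucosal surfaces, was at 203 TPM there and at no more than 27 TPM in the other 5 samples. None of these genes passed the test of denervated against sham. Lcn2, an iron-binding protein of inflamed tissue, was at 97.9, 18.1, and 16.2 TPM in sham and 868, 39.8, and 62.7 TPM in denervated pads, highest in mouse 1 on both sides, and did not pass (2.06 ± 0.39, adjusted p = 0.0958).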
